A study of Mus musculus with 6 samples.

Results

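The AP-1 family was examined here in regulatory T cells (Treg) of the mouse colon and of the lymph node that drains the gut. Its members were taken as all array probes that the platform annotation names for Fos, Fosb, Fosl2, Jun, Junb, Jund, Batf or Atf3, which gave 11 probes for 8 genes among 45281 probes and 19057 named genes. Fosl2 had 3 probes, Junb 2 and the other genes 1 each. The data were 6 Illumina bead arrays, 3 of mesenteric lymph node Treg (MLN Treg) and 3 of Treg of the colon lamina propria (cLP Treg), the connective tissue under the gut epithelium. The groups follow the source labels, and the sample titles write MSN where these write MLN. All the cells were sorted as TCRβ+, CD4+ and Foxp3+, from C57BL/6 mice of the genotype labelled Foxp3gfp that were kept in the steady state, without treatment. Age, sex and any pooling of animals are not given in the labels, nor whether replicate arrays stand for different mice, and a p-value here therefore reflects the scatter of these arrays, which may be technical.

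AP-1 is a dimer of basic leucine zipper (bZIP) proteins that binds DNA through the basic stretch and pairs through the zipper. Fos proteins pair with Jun proteins, BATF pairs with Jun proteins and binds composite sites together with IRF4, and ATF3 pairs with itself or with Jun proteins. In T cells AP-1 acts downstream of the MAP kinases and joins NFAT at many genes that the T cell receptor induces, and in mice BATF and JunB are known to be needed for effector and tissue Treg.

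In cLP Treg, 5 of the 8 genes were higher than in MLN Treg and 0 were lower, where 12.1% of the 9157 genes tested were higher and 20.4% lower (limma with Benjamini-Hochberg adjustment, threshold 0.05). The increases were in Fosl2 (40.8-fold), Atf3 (at least 13.9-fold with the normalisation used here), Fosb (14.9-fold), Junb (7.78-fold) and Batf (3.24-fold). Fos, Jun and Jund did not pass the threshold, with adjusted p = 0.214, 0.253 and 0.0977. At an unadjusted p under 0.05, 6 were higher by limma and still 0 lower, where 15.4% of all genes were higher and 28% lower. The median difference of the 8 genes was 2.33 on the log2 scale, also with Atf3 set at its bound, and the median of all genes tested was -0.21. At the level of probes, 10 of the 11 entered the test, and 7 were higher and 0 lower, where 14% of 13538 probes were higher and 18.4% lower. In the same 5 genes the 3 cLP values lay above the 3 MLN values, as they did in 16.8% of all genes tested. Of the 5 AP-1 genes detected on all 6 arrays (Fos, Fosl2, Jun, Junb and Batf) 3 were higher, where 12.1% of the 6984 genes so detected were higher. Without MLN sample 2, described below, 6 genes were higher, where 8.7% of all genes were. As these are bulk samples, a change in the share of cells that make a transcript and a change in its amount per cell cannot be told apart.

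**Figure D1:**
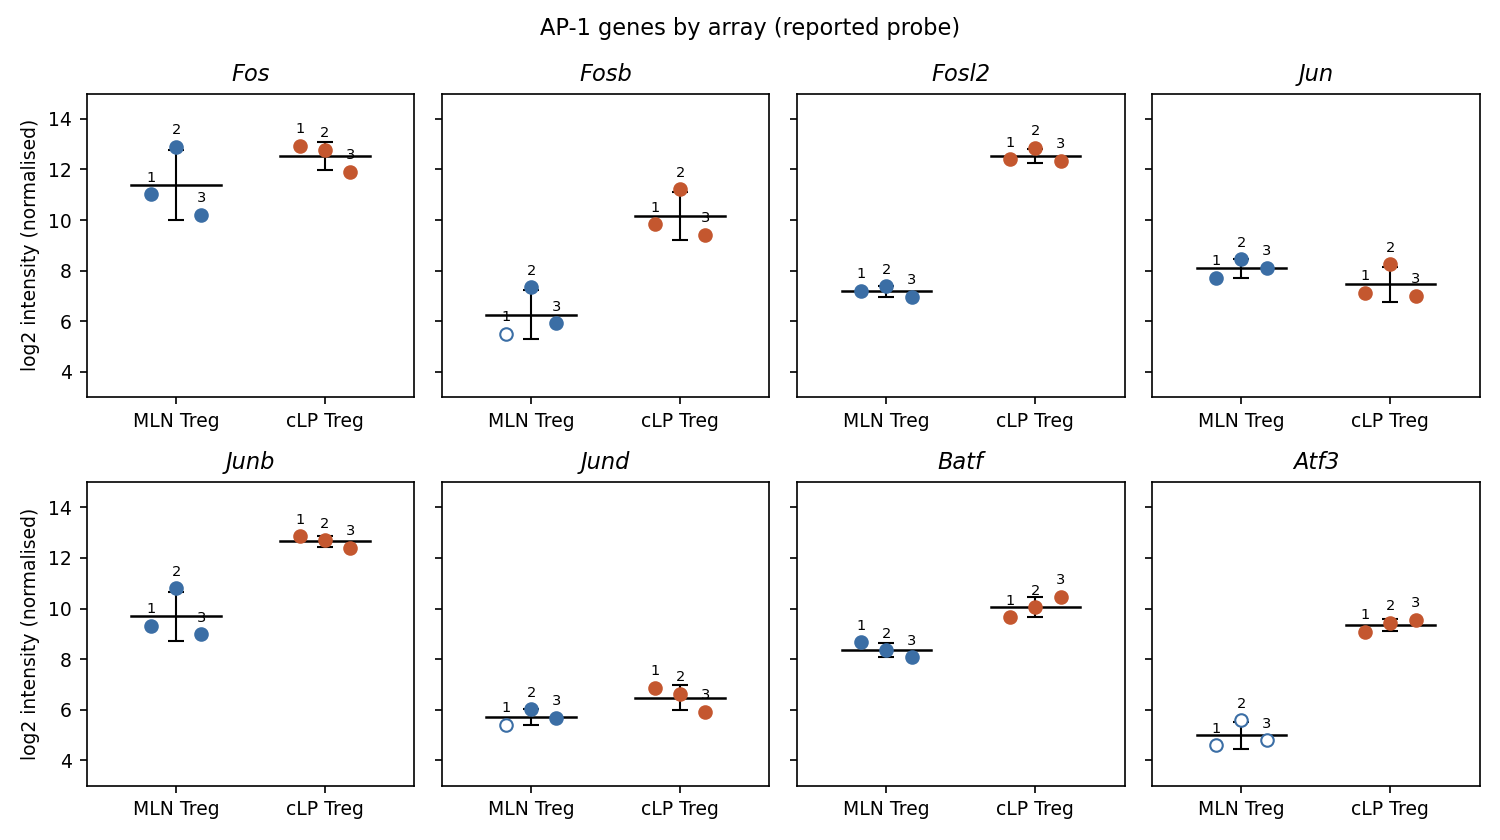
Normalised log2 intensity (vertical axis) of the reported probe of each AP-1 gene on each array, with MLN Treg in blue and cLP Treg in orange and the sample number beside each point. Open points were not detected above the negative controls, and lines with bars give the mean and SD of 3 arrays. The groups separate in Fosb, Fosl2, Junb, Batf and Atf3, and they overlap in Fos, Jun and Jund.

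Only set patterns of letters were searched for, and near matches count as absent. They were patterns that CREB, ATF and AP-1 proteins read, the run TATAAA, and the CArG box read by SRF. Stretches of 110 bases that end just before the transcription start given for each gene (RefSeq, GRCm38.p6) are printed below. The first 4 are shown because they hold a match, the last 2 because their genes rose most among those with a probe detected on all arrays and hold none. Capitals mark TGACGT on either strand, which is part of the cAMP response element TGACGTCA, the Jun promoter variant TGACATCA, and TATAAA. They were read at chr12:85473780-85473889 (plus strand) for Fos, chr1:191183334-191183443 (minus strand) for Atf3, chr12:85686610-85686719 (plus) for Batf, chr4:95052223-95052332 (minus) for Jun, chr5:32136362-32136471 (plus) for Fosl2 and chr8:84978749-84978858 (minus) for Junb.
Fos: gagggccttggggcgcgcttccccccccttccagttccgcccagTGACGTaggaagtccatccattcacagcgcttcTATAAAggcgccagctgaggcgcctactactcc
Atf3: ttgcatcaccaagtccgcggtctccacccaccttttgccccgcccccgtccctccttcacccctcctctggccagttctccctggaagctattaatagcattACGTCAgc
Batf: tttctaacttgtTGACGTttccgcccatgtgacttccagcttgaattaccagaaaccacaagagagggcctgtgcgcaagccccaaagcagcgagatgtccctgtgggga
Jun: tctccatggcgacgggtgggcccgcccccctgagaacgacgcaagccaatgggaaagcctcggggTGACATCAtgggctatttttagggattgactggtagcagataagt
Fosl2: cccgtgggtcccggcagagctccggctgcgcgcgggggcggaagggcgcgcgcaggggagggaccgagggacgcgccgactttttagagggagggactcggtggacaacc
Junb: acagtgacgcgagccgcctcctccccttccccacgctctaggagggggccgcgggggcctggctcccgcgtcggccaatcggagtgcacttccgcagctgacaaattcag

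All 8 genes had an entry in the promoter table, and the 250 bases before each start were searched on both strands. TGACGT was present in Fos (66 to 61 bases before the start), Batf (98 to 93) and Atf3 (8 to 3, on the opposite strand), or 3 of 8 genes, and in 6.47% of 32851 promoters. So the core was held by 2 genes that rose and by Fos, which did not pass the threshold. TGACATCA was present in Jun (45 to 38 bases before the start) and in 2.93% of all promoters, and TATAAA in Fos (33 to 28) and in 12.4%. The AP-1 site TGANTCA (6.75% of all promoters) and the full TGACGTCA (1.55%, counted among the TGACGT matches too) had 0 matches in these 250 bases of the 8 genes. The CArG box read by SRF (1.47%) also had 0 matches there. Sequence further upstream was not searched. A match is a run of letters in this window and not a measured site.

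Among the Fos family, Fosl2, which encodes the Fos-related protein Fra-2, showed the largest rise of the 8 genes by its reported probe. Its reported probe (ILMN_1252481) had log2 values of 7.21, 7.38 and 6.96 in MLN samples 1, 2 and 3 and of 12.41, 12.85 and 12.34 in cLP samples 1, 2 and 3. On the linear scale of the scanner the signal was 295, 275 and 218 in MLN Treg against 5281, 6116 and 4190 in cLP Treg. The arrays within each group lay close together, and every cLP value stood far above every MLN value. The difference was 5.35 with a standard error of 0.24 in log2 units (limma, adjusted p = 6.17e-05). Values after ± below are standard errors unless called SD. This difference was higher than 99.9% of those of all genes.

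The other Fosl2 probes were dim in the lymph node. ILMN_2768924 had log2 values of 4.58, 4.61 and 4.63 in MLN Treg, not detected on any of these arrays, and of 8.69, 8.85 and 9.07 in cLP Treg. This made the probe at least 9.86-fold higher in cLP Treg (adjusted p = 6.61e-05 over 13538 probes). ILMN_2718801 had 5.31, 5.27 and 5.40 against 6.85, 6.27 and 6.80 and was at least 2.11-fold higher (adjusted p = 0.00628). The 3 probes pointed the same way, and the bounds of the dim probes are lower limits only with the normalisation used here. Without background correction the differences of ILMN_2768924 and ILMN_2718801 were 2.61 and 0.58, both smaller than these bounds. The mean of the probes gave a fitted difference of 3.64, which averages in MLN values at background. Both dim probes passed the detection filter only through the cLP arrays.

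Fosb encodes a Fos protein that is made rapidly and briefly after stimulation. Its values were 5.50, 7.35 and 5.92 in MLN Treg and 9.83, 11.22 and 9.42 in cLP Treg, and MLN sample 1 was not detected. Sample 2 was the highest array in each group, and the groups did not overlap. The difference was 3.90 ± 0.60 (adjusted p = 0.00306), with an SD of 0.97 in MLN Treg and 0.94 in cLP Treg (n = 3 each). Part of the MLN mean is background.

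Fos, the founding member of the family, did not separate the groups. Its log2 values were 11.02, 12.89 and 10.21 in MLN Treg and 12.94, 12.78 and 11.90 in cLP Treg. MLN sample 2 lay within the range of the cLP samples, and the other 2 MLN samples lay below all cLP samples. The difference was 1.17 ± 0.65 (adjusted p = 0.214) with a 95% interval of -0.35 to 2.68. The SD of 1.37 among the MLN samples was higher than that of 99.8% of all genes. Without MLN sample 2 the difference was 1.92 and passed the threshold (adjusted p = 0.0251), and without MLN sample 3 it was 0.59 (adjusted p = 0.536).

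In the Jun family the members did not move alike. Junb, whose protein is a weaker activator than JUN on many promoters, had values of 9.31, 10.80 and 8.98 in MLN Treg and of 12.85, 12.70 and 12.41 in cLP Treg by the probe ILMN_1220034. Its scanner signal was 1009, 2071 and 714 in MLN Treg against 7113, 5438 and 4389 in cLP Treg. MLN sample 2 was again the highest of its group, but every cLP sample lay above it. The difference was 2.96 ± 0.46 (adjusted p = 0.00321), and without MLN sample 2 it was 3.50. A second Junb probe (ILMN_1254833), named from the clone AK044253, was not detected on any array and entered no test.

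Jund, which many cells make without stimulation, had values of 5.40, 6.03 and 5.68 in MLN Treg and of 6.87, 6.63 and 5.92 in cLP Treg. MLN sample 1 was not detected, and cLP sample 3 lay just below MLN sample 2. The difference of 0.77 ± 0.31 missed the threshold (adjusted p = 0.0977; 95% interval 0.04 to 1.50, not adjusted). It passed without cLP sample 3 (1.04, adjusted p = 0.0244) and with the median difference of all genes set to 0 (0.98, adjusted p = 0.0499), which was chosen after seeing the data. Over its alternatives the adjusted p ran from 0.0244 to 0.283.

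Jun, the partner of most Fos proteins, was the one member with a negative difference. Its values were 7.72, 8.45 and 8.11 in MLN Treg and 7.13, 8.26 and 7.02 in cLP Treg. The cLP samples 1 and 3 lay below all MLN samples, and cLP sample 2 lay among them. The difference was -0.63 ± 0.38 (adjusted p = 0.253) with a 95% interval of -1.51 to 0.26. Without cLP sample 2 it was -1.04 and passed the threshold (adjusted p = 0.0416), and its adjusted p over all alternatives ran from 0.0416 to 0.515.

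Batf encodes a bZIP protein without an activation domain of its own. Its values were 8.66, 8.35 and 8.07 in MLN Treg and 9.66, 10.06 and 10.46 in cLP Treg. The groups did not overlap, and unlike the other members its highest MLN value was in sample 1. The difference was 1.70 ± 0.28 (adjusted p = 0.00423), and it was 1.25 with median scaling and 1.16 in the authors' deposited values, past the threshold in both (adjusted p = 0.0152 and 0.0109).

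Atf3, a bZIP gene induced by stress and by inflammatory signals, was detected on all 3 cLP arrays and on 0 MLN arrays. Its values were 4.59, 5.58 and 4.80 in MLN Treg, all at background, and 9.09, 9.43 and 9.56 in cLP Treg. The scanner signal was 103, 154 and 89.3 against 580, 592 and 677. With the normalisation used here Atf3 was at least 13.9-fold higher in cLP Treg (limma, adjusted p = 0.000186). The fitted difference of 4.37 rests on MLN values at background. It was 2.78 without background correction and 2.68 in the authors' deposited values, both smaller than this bound. Atf3 had passed the detection filter through the cLP arrays alone.

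**Figure D2:**
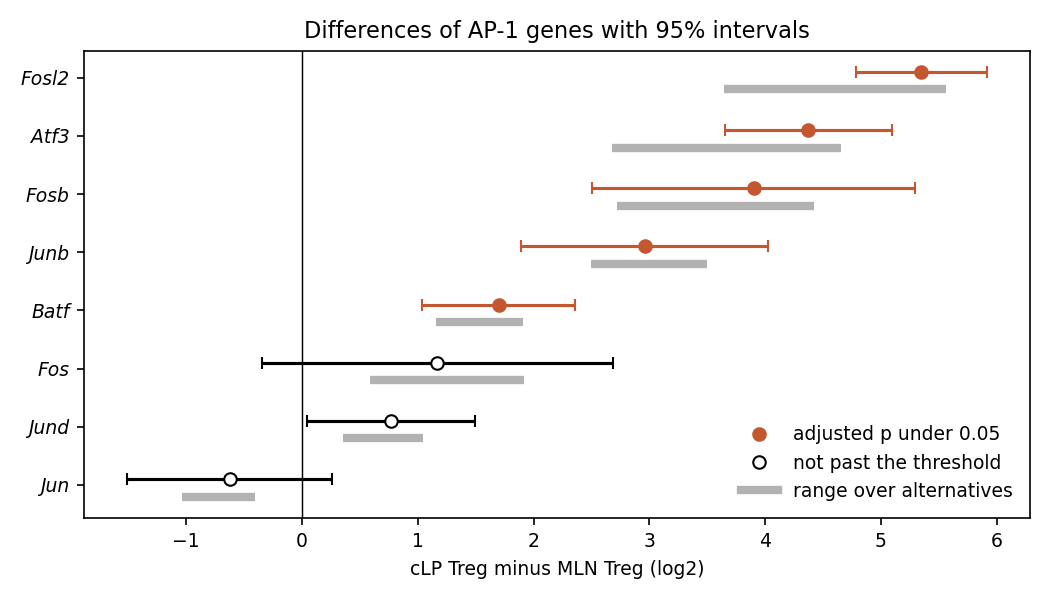
Difference between cLP Treg and MLN Treg (log2, horizontal axis) of each AP-1 gene with its 95% interval from limma. Filled points passed the threshold, open points did not, and grey bars give the range over the alternatives, which for Fosl2 reaches down to 3.64 and for Atf3 to 2.68.

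Set among all genes tested, the differences of Fosl2, Atf3, Fosb and Junb were higher than 99.9%, 99.6%, 99.4% and 98.4% of the others. The rank of Atf3 rests on MLN values at background, and at its bound it stood at 99.3%. Batf stood at 94.0%, Fos at 89.9%, Jund at 85.0% and Jun at 31.4%. Higher genes made up 37.3% of the 2974 genes past the threshold. They made up 21.5% with median scaling, 24.1% in the authors' deposited values and 50.4% with the median difference set to 0. The number of AP-1 genes higher was 5, 5 and 6 under these settings, and 0 were lower in each.

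**Figure D3:**
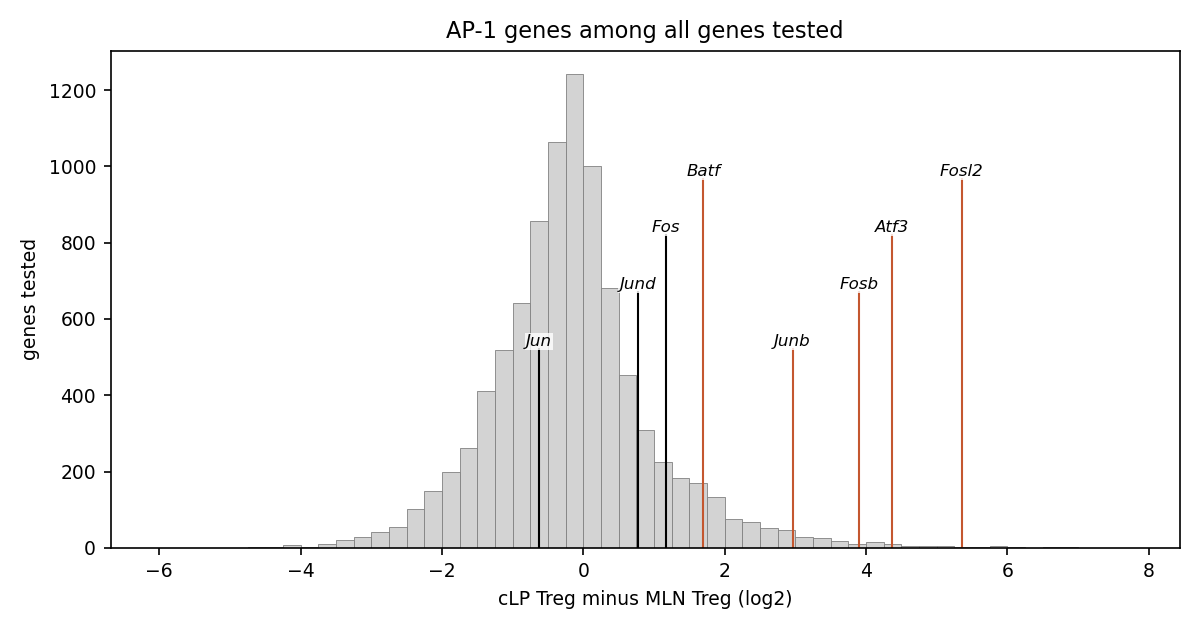
Number of genes tested (vertical axis) by their difference between cLP Treg and MLN Treg (log2, horizontal axis, bins of 0.25). Vertical lines mark the AP-1 genes, in orange where past the threshold and in black where not. Fosl2, Atf3, Fosb and Junb lie in the right tail, and Jun lies left of the centre near 0.

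MLN sample 2 stood apart from the other MLN samples in Fos, Fosb and Junb. It held the highest of the 3 MLN values in 7 of the 8 AP-1 genes (not in Batf, and in Atf3 among values at background). The same held in 10 of 16 other immediate early genes, against 36.9% of all genes tested. MLN sample 2 also had the lowest share of detected probes of the 6 arrays (32.7%). Among the cLP samples the highest value was in sample 1 for 3 genes, in sample 2 for 3 and in sample 3 for 2. The SDs of Fosb and Junb in MLN Treg were higher than those of 99.0% and 98.9% of all genes. Those of Fosl2, Jund and Jun were higher than 38.2%, 62.1% and 71.6%.

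Of 15 other bZIP genes measured, 8 were higher, 1 was lower and 6 did not pass the threshold, with a median difference of 0.76. Among all genes tested 12.1% were higher and 20.4% lower. Maf and Jdp2 passed the detection filter only through the cLP arrays. Ddit3, a stress response gene named after its values were seen, was among the 8, and its call was lost under 7 of 16 alternatives (adjusted p up to 0.364), which were median scaling, the authors' deposited values, the replicate block and the removal of any MLN sample or of cLP sample 1. Crem, which encodes the cAMP response element modulator, rose most, by 5.48 ± 0.21 (44.7-fold, adjusted p = 4.86e-05). Maf, a transcription factor of interleukin 10 producing T cells, was at least 5.43-fold higher and not detected on the MLN arrays. Cebpb, a factor of inflammatory gene control, rose by 2.58, its dimer partner Cebpg by 1.82 and the stress response factor Atf4 by 1.24. Jdp2, a Jun dimerization protein that represses AP-1 sites, was at least 1.85-fold higher. The 1 lower gene was Atf7, with a difference of -0.98 (adjusted p = 0.0212), and it did not pass without MLN sample 1, with the replicate block or with the median difference set to 0. Atf2, which pairs with JUN, differed by -0.19 (adjusted p = 0.649).

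The kinases and factors that act above AP-1 were split. Of 19 measured, 6 were higher, 2 lower and 11 not past the threshold, where 12.1% of all genes tested were higher and 20.4% lower. The median of -0.18 was close to that of all genes. Map3k2 and Map3k5 passed the detection filter only through the cLP arrays. Prkcq, which encodes the protein kinase C that links the T cell receptor to AP-1 and NF-kB, fell by 3.09 ± 0.39 on the log2 scale (adjusted p = 0.00149). Map2k3, a kinase of p38, rose by 2.68 ± 0.30 (adjusted p = 0.000848), and Map3k2 was at least 2.80-fold higher. Rps6ka3, a kinase downstream of ERK, rose by 1.40, Map3k1, which acts on the JNK pathway, rose by 0.96, and Map3k4 fell by 1.14. The calls of Rps6ka3, Map3k1 and Map3k4 were lost under 5, 3 and 2 of 16 alternatives, each without MLN sample 2 among others. Map3k7 and Map3k5, also among the 6 higher, lost theirs under 10 of 16 and 9 of 15. Mapk8 and Mapk9, which encode the JNK kinases named for acting on JUN, differed by -2.28 and -0.77 (adjusted p = 0.0567 and 0.0534). These counts rested on single arrays and on scaling: 3, 2 and 3 genes were higher without MLN sample 1, 2 or 3, and with median scaling or in the authors' deposited values 3 were higher and 6 lower.

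Of 6 measured partners of AP-1 at composite sites, 5 did not pass the threshold, 0 were higher by limma (1 at an unadjusted p under 0.05) and 1 was lower, which was Nfatc1, the NFAT member induced by the T cell receptor, with a fall of 3.12 ± 0.34 (adjusted p = 0.000828). Irf4, the partner of BATF, differed by 0.72 (adjusted p = 0.0647), Nfatc2 by 1.15 (adjusted p = 0.253) and Nfatc3 by -0.28 (adjusted p = 0.366). The partner counts moved with the setting. Among the alternatives, 1 partner was higher without background correction, with the mean of a gene's probes, and without cLP sample 1 or 2. In the authors' deposited values 2 were lower. Of 3 measured genes of Jun control, 1 was higher, 1 was lower and 1 did not pass. Beside both lists, 12.1% of all genes tested were higher and 20.4% lower. Fbxw7, part of a ubiquitin ligase for JUN, rose by 1.58 (adjusted p = 0.0139). Men1, whose product menin binds JUND, fell by 1.27 (adjusted p = 0.00935), and Cops5, a coactivator of JUN, differed by -0.04 (adjusted p = 0.907). Fbxw7 did not pass with median scaling.

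Genes with known AP-1 sites in other settings were higher in 3 of 9 measured members and lower in 0 by limma. At an unadjusted p under 0.05 the counts were 6 and 1. Among all genes tested 12.1% were higher and 20.4% lower, or 15.4% and 28% unadjusted. Il10, an anti-inflammatory cytokine gene, rose by 5.20 ± 0.20 (adjusted p = 4.86e-05). Il17a, the cytokine of type 17 helper cells, rose by 4.17 ± 0.28 and was detected on 1 MLN array. Ifng, the cytokine of type 1 helper cells, differed by 2.15 ± 0.69 and only just passed (adjusted p = 0.0492), with values of 6.57, 7.83 and 5.73 in MLN Treg and of 8.76, 7.72 and 10.09 in cLP Treg, so the groups overlapped. Its call was lost under 10 of 16 alternatives (adjusted p from 0.0275 to 0.157 over all of them), among them the removal of MLN sample 1 or 3 or of cLP sample 1 or 3, while Il10 and Il17a passed under every alternative in which they were tested. Tnf, Mmp9 and Cd44 differed by -0.67, 0.76 and 0.52 (adjusted p = 0.0508, 0.0538 and 0.0851). Under 7 alternatives 2 members were higher (median scaling, the authors' deposited values, the replicate block, and 4 that each left out sample 1 or sample 3 of a group), under 3 alternatives 4 were, and under 2 (the mean of the probes of a gene, and the median difference set to 0) 5 were. Under 7 alternatives 1 member was lower.

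The other immediate early genes moved in both directions. Of 16 measured, 8 were higher and 4 lower in cLP Treg, with a median of 0.94, or 0.56 with genes at their bounds. Among all genes tested 12.1% were higher and 20.4% lower. Nr4a2, Nr4a3 and Ier2 passed the detection filter only through the cLP arrays. Klf6, a Kruppel-like factor, rose by 4.44 ± 0.40 (adjusted p = 0.000391), with values of 8.89, 9.64 and 8.10 in MLN Treg and of 13.66, 13.05 and 13.24 in cLP Treg. The nuclear receptor gene Nr4a3 was at least 5.10-fold higher, the apoptosis regulator Ier3 rose by 3.04 and Klf4 by 2.88. In the other direction, the zinc finger gene Egr2, a target of T cell receptor signals, fell by 4.36 ± 0.66 (adjusted p = 0.00295) and Egr3 fell by 3.34 ± 0.21 (adjusted p = 0.000143). Egr1 and Klf2 fell by 1.18 and 0.94 (adjusted p = 0.0271 and 0.0164). The calls of Egr1 and Klf2 were lost under 6 and 1 of 16 alternatives, both without MLN sample 2, which left 2 genes lower. With detection required on all 6 arrays only 10 genes could be tested, and 4 of them were higher and 3 lower.

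**Figure D4:**
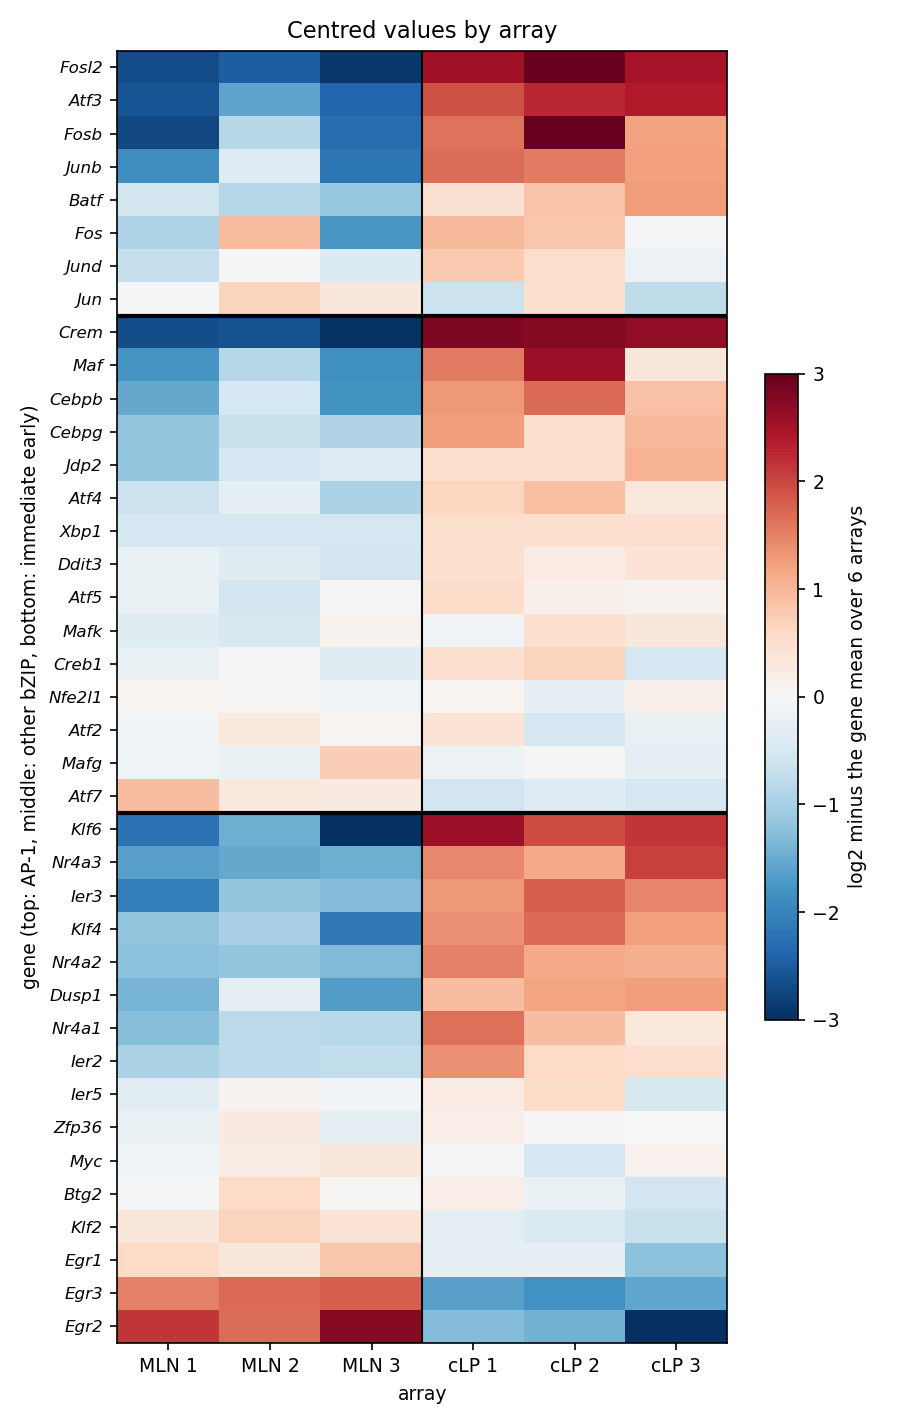
Log2 values by array (columns) with each gene's mean over the 6 arrays subtracted (colour, which ends at -3 and 3), for the AP-1 genes, the other measured bZIP genes and the other immediate early genes (rows, ordered by difference within each block). Fosl2, Atf3, Crem and Klf6 run from blue in the MLN arrays to red in the cLP arrays, MLN 2 is pale or red in Fos, Fosb and Junb, and Egr2 and Egr3 run the other way.

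The genes whose profile over the 6 arrays was most like that of a member were found by the root mean square difference of mean-centred log2 values. For Fosl2 these were Crem (0.17), Il10 (0.24) and Ednrb, an endothelin receptor gene (0.24). Crem had values of 8.75, 8.79 and 8.45 in MLN Treg and of 14.20, 14.16 and 14.07 in cLP Treg, so it shared the flat groups and the wide gap of Fosl2. The nearest gene was Slc15a3, a peptide transporter gene, for Atf3 (0.12), Camk2n1, an inhibitor of CaM kinase II, for Batf (0.06), and Tg, which encodes thyroglobulin, for Junb (0.26). For Fosb the nearest was Maf, at a larger distance of 0.59. All of these profiles share the same 6 arrays and the split between 2 groups.

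The identity of the sorted cells and the presence of others were read from marker genes. Foxp3 had a mean of 13.59 ± 0.20 in MLN Treg and 13.58 ± 0.26 in cLP Treg (SD, n = 3 each). Cd4 and Cd3e were detected on all 6 arrays, Cd4 with low means of 6.85 and 6.78. Of 8 Treg and helper T cell markers 3 were higher and 1 lower, where 12.1% of all genes tested were higher and 20.4% lower. The same shares apply to the marker lists below. The higher ones were Ikzf2 (4.64-fold), Tnfrsf18 (2.40-fold) and Ctla4 (2.08-fold). Il2ra was 3.17-fold lower (limma, adjusted p = 0.0112). The calls of Ikzf2 and Tnfrsf18 were lost under 3 and 8 of 16 alternatives. Stromal and endothelial markers were higher in 2 of 4 measured members, Acta2 (at least 33.7-fold) and Col3a1 (at least 5.95-fold), by their reported probes. The summed normalised intensity of all 14 such markers ran from 848 to 1072 in MLN Treg and from 2195 to 3326 in cLP Treg, while Col1a1, Lum, Pdgfrb, Tagln and Cdh5 were not detected on any array. Mast cell and innate lymphoid markers were higher in 2 of 3, Hdc and Kit, and the sum of the list ran from 173 to 436 against 753 to 2281. The third, Klrb1c, differed by -0.53 (limma, adjusted p = 0.116), with every cLP value below every MLN value. Cpa3, Fcer1a, Mcpt1, Mcpt2, Mcpt4, Tyrobp and Ncr1 were not detected on any array. Myeloid markers were lower in 2 of 3, Lyz1 and Lyz2, with sums of 267 to 441 against 163 to 301, and Itgam, Itgax, Fcgr1, S100a8 and S100a9 were not detected on any array.

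Of B cell and plasma cell markers 1 of 4 was higher (Jchain) and 1 lower (Cd79b), with sums of 1814 to 2050 against 2006 to 3409. The brightest of the 4 was Irf4, also counted above as the partner of BATF, and it weighs most in these sums. Its means were 10.48 in MLN Treg and 11.20 in cLP Treg. Those of Cd79b were 8.69 and 6.00, and those of Jchain 5.33 and 6.66. None of 4 epithelial markers passed the threshold by limma (1 at an unadjusted p under 0.05, which was Krt8, adjusted p = 0.0544), and their sums ran from 931 to 1185 against 1303 to 3281. Cytotoxic T cell markers were higher in 3 of 4, Gzmb, Nkg7 and Prf1, with sums of 19350 to 24170 against 32370 to 33510, and Cd8a was not detected on any array. The fourth, Cd8b1, which encodes the other CD8 chain, was detected on all 6 arrays with means of 12.28 and 11.50 and a difference of -0.78 (adjusted p = 0.0610). The reported probes of Acta2, Col3a1, Jchain and Gzmb were detected only on cLP arrays and passed the detection filter through these alone. Acta2 could still be tested, and was higher, with detection required on all 6 arrays. Another of its probes was therefore detected in MLN Treg, and the bound of Acta2 covers the reported probe only. With 1 array left out, the counts of these marker lists moved by at most 2 genes. The calls of Prf1, Jchain, Kit, Lyz1, Lyz2 and Hdc were lost under 8, 6, 6, 8, 4 and 1 alternatives. Prf1 was the brightest of the 4 cytotoxic markers, with means of 14.04 and 14.81, and weighs most in their sums. Its call was lost with the mean of a gene's probes among others, and its adjusted p (limma) reached 0.708 over the alternatives. The part of these cells in the AP-1 differences was not tested. Signal over background was 3.33 to 4.10 on the MLN arrays and 2.61 to 3.18 on the cLP arrays, and its part was not tested. The share of detected probes ran from 32.7% to 35.4%, and across genes, which are not independent replicates, Pearson's r was at least 0.969 between MLN samples, 0.927 between cLP samples and 0.829 between groups. With 3 arrays a group, the number of arrays limits the precision of every value.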

How the data were processed

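The deposited table of probe intensity per array (linear scale) came from GenomeStudio (version 1.6.0), as named in the submitters' processing notes. Beside each signal stands a column that the authors headed as a p-value of detection, yet it climbs as signal climbs (rank correlation 0.991 or more). The deposited fraction was therefore read as the share of dimmer negative controls, and the detection p as 1 minus it. The authors' deposited series matrix holds log2 values: per array, log2 signal minus that of the 75th percentile, with column medians of -0.728, -0.607 and -0.848 (MLN) and -0.596, -0.689 and -0.661 (cLP). All 45281 probes matched between both tables by value (tolerance 0.1, largest difference 0.035), so scale, centring and direction were settled.

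Background was corrected by normexp with moments from the detection p (offset 16), then quantile normalised, in limma 3.58.1 (R 4.3.3). Named probes with detection p under 0.05 on at least 3 of 6 arrays were kept (13538). The probe with the highest mean stood for each of 9157 genes. Probes of 1 symbol numbered 34885, of several 18 and of none 10378. Differences are cLP minus MLN from lmFit and eBayes without a block, a script tested on simulated data. Folds given as "at least" set the bright group against, per array, the higher of the lowest detected signal and the probe's own. They are lower limits for this normalisation only, and other background settings can give smaller differences.

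The members and lists were chosen with earlier results of these data known. Named from each list were at most 6 genes past the threshold, by largest difference. Members that did not pass, Ddit3, Atf7, Egr1, Klf2, Nr4a2, Ier2, Map3k5, Map3k7, Men1 and Cops5, and marker genes beyond the largest, were added after their values were seen. Same-numbered samples of the groups did not deviate together (correlations -0.165, -0.105 and -0.0107), so the numbers were not taken as pairs. Alternatives changed background, scaling, filter, probe rule, block and samples.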

Additional observations from a re-analysis of the deposited data

How the results depend on the processing

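Fosl2, Fosb, Junb, Batf and Atf3 kept their direction and passed the threshold under every alternative in which they were tested (16, 15, 16, 16 and 15 alternatives), with adjusted p of at most 0.0013, 0.0182, 0.0162, 0.0216 and 0.00232. Fosb, Jund and Atf3 could not be tested with detection required on all 6 arrays, which left 3 AP-1 genes higher. With 1 array left out, the number of AP-1 genes higher ran from 5 to 6 and the number lower from 0 to 1 (Jun, without cLP sample 2). The number of genes past the threshold ran from 1808 to 3223 and of probes from 2649 to 4845, against 2974 and 4396. Without MLN sample 1 or 2 the genes numbered 1808 and 1910, and the fewer samples are part of that setting. The replicate numbers are not known to pair the samples. With the replicate block 2453 genes and 3719 probes passed, 5 AP-1 genes were higher and 0 lower, and of 3 MLN samples 0 correlated best with the cLP sample of the same number. The median difference of all genes was -0.21, and it was -0.51 with median scaling and -0.30 in the authors' deposited values. Signal near background limits Atf3, Fosb, Jund and the dimmer Fosl2 probes, whose differences shrink without background correction (2.78, 2.85, 0.35, and 0.58 and 2.61).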
